A study of Mus musculus with 9 samples.

Results

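The wild-type newborn mouse cortex was described from 3 of the 9 RNA-sequencing libraries of the series, those whose titles name wild type replicates 1, 2 and 3. They are called libraries 1, 2 and 3 here. The animals were wild-type littermates at postnatal day 0 (P0), on a background that mixed C57BL/6J, 129S6 and CD1. RNA came from dissected, flash-frozen cortex, which holds every cell type of the piece that was cut. The other 6 libraries were from cortex after in utero electroporation of ShhN or with hGFAP-Cre and a conditional SmoM2 allele, and none of their values was used. The labels do not say whether the 3 libraries were separate animals or separate litters, so the spread given here may be technical. They give neither the sex nor the area of cortex. One group of 3 libraries allows no test between conditions, and the values below are levels, ranks and spreads.

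At birth the mouse cortex is in transition. Most pyramidal neurons, the excitatory projection neurons, have been born from radial glia and intermediate progenitors, deep layers before upper ones, and are extending axons and beginning to form synapses. Inhibitory interneurons made in the ventral forebrain have migrated in, while the progenitors are turning to the production of astrocytes, oligodendrocytes and olfactory bulb neurons. Myelin has not yet formed in the cortex, and vessels, microglia and the meninges over the surface are dissected with the neural tissue.

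The same 3 libraries stand in 2 deposited tables, one with the ShhN libraries and one with the SmoM2 libraries, each with a read count and an FPKM per gene. FPKM is fragments per kilobase of gene per 1000000 fragments, so it can be compared between genes. Values are from the table with ShhN unless the table with SmoM2 is named. Total counts were 20076683, 21694348 and 18610507 in libraries 1, 2 and 3, and 20027734, 21632586 and 18617404 in the table with SmoM2. A count of 0 allowed up to 3 counts, or 0.149, 0.138 and 0.161 counts per 1000000 (CPM). Across 15362 genes with at least 10 counts in each library, log2 counts correlated between libraries with Pearson's r of 0.979 to 0.985, a value across genes, which are not independent. Every pair differed by more than counting noise (chi-square over degrees of freedom, 22.8 to 28.8), so no pair was treated as repeat deposits of 1 library. The biological coefficient of variation, the typical spread of a gene between libraries beyond counting noise, was 20.2%.

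About as many genes were at 1 FPKM or more in every library as were not, and a small set of cytoskeletal, translation and mitochondrial genes stood far above the rest. Of 22496 genes listed, 11753 (52.2%) had at least 1 FPKM in all 3 libraries. In the table with SmoM2 it was 11703 of 23624 (49.5%), and 11580 genes passed in both. The median of the genes that passed was 6.89 FPKM, and 7.10 in the table with SmoM2. By mean FPKM, 8074 genes lay between 1 and 10, 4193 between 10 and 100, 226 between 100 and 1000 and 22 at 1000 or above. Those 22 genes made up 21.8% of all FPKM. They were 12 mitochondrial genes, 7 predicted genes or pseudogenes and only 3 other genes, all tubulins. In the table with SmoM2, 13 genes reached 1000 FPKM, and 6 of them were mitochondrial. A further 4149 genes were above 0 but under 0.1 FPKM, and 352 were at 0 in every library.

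The 15 most abundant genes, with mitochondrial genes, pseudogenes and predicted names left aside, were the same 15 in both tables. They were Tuba1a, Tubb2b, Tubb3, Tuba1c, Cfl1, Basp1, Tubb2a, Eef1a1, Marcksl1, Eef2, Tubb5, Rplp1, Cd24a, Fth1 and Rpl4. Tubulins, the subunits of microtubules, took 6 of the 15 places. Tuba1a (chromosome 15, 98949841 to 98953551), the main alpha-tubulin of young neurons, had 2829, 2162 and 2504 FPKM in libraries 1, 2 and 3. Tubb3 (chromosome 8, 123411424 to 123422015), the beta-tubulin of neurons, had 1356, 1181 and 1166 FPKM. Tubb2b, a beta-tubulin of migrating neurons, averaged 1440.4 ± 102 FPKM (SD, n = 3). In each of these tubulins library 1 was the highest. Summed over 15 alpha, beta and gamma tubulin genes, 13 of them at 1 FPKM or more in every library, the level was 9003, 7712 and 7884 FPKM, or 3.35% of all FPKM.

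Genes of growing processes followed the tubulins. Basp1, a membrane-associated protein of growth cones, averaged 977 ± 100.1 FPKM, and Marcksl1, its relative that binds actin and calmodulin, 739 ± 53.2. Cfl1, the actin-severing protein cofilin, averaged 978 ± 104 FPKM, and Cd24a, a surface glycoprotein of young neurons, 603 ± 55.7. Translation was represented by Eef1a1 at 744, Eef2 at 699.9, Rplp1 at 647 and Rpl4 at 558 FPKM, the first pair being elongation factors and the others ribosomal proteins. Fth1, the heavy chain of the iron store ferritin, averaged 576 ± 53.1 FPKM. Of 83 ribosomal protein genes, 74 had at least 1 FPKM in every library, with a median of 27.2 FPKM. Rps13, Rps29, Rpl26 and Rpl9 averaged only 0.278, 0.392, 0.411 and 0.483 FPKM. How reads shared with copies were counted is not known, so the levels of this family are uncertain, as shown for Rps27 and Rps2 below. When FPKM was recomputed from the deposited counts with the joined exon length of each gene in GENCODE M21, 11 of these 15 genes stayed among the top 15. Tmsb4x, Calm2, Dpysl3 and Hsp90ab1 then took the places of Cfl1, Cd24a, Fth1 and Rpl4, and Tuba1a stood at 4397 FPKM.

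**Figure D1:**
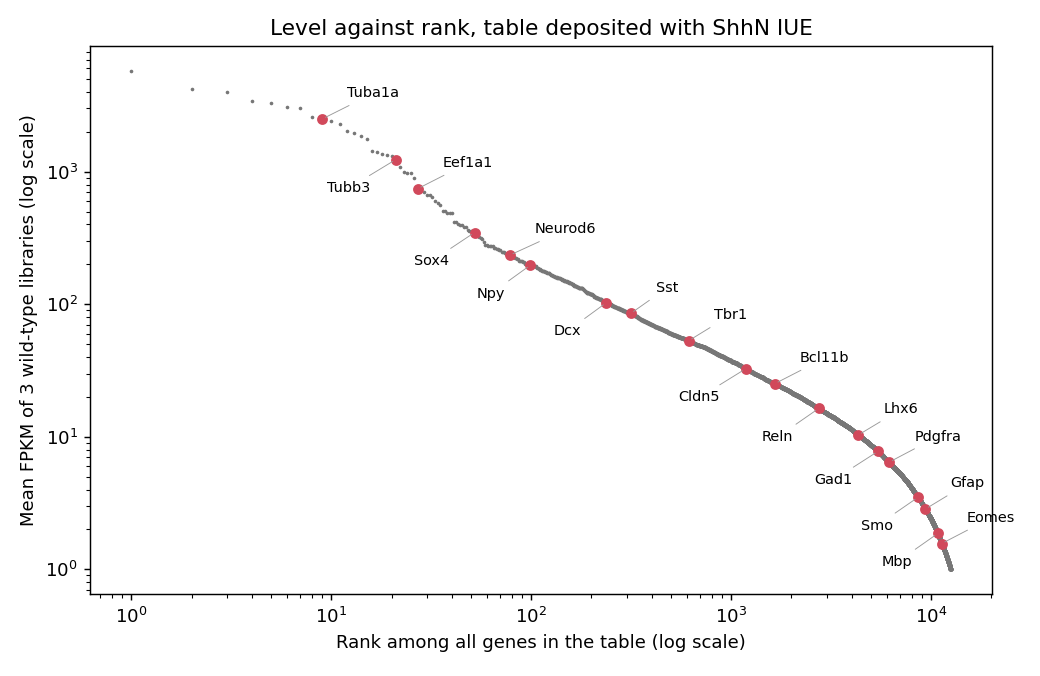
Mean FPKM of the 3 wild-type libraries (y axis, log scale) against rank among all genes of the table with ShhN (x axis, log scale), for genes with a mean of at least 1 FPKM. Each grey point is a gene and red points carry names. Tuba1a stands at rank 9 and Tubb3 at rank 21, the factors Sox4 and Neurod6 at 347.5 and 234 FPKM, and Gfap, Mbp and Eomes near the lower end at 2.85, 1.87 and 1.57 FPKM.

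The gene length behind the deposited FPKM set a limit on these levels. Dividing counts by FPKM gave the length used, which was the same in all libraries. It was over 1.5 times the joined exon length for 28.4% of 13916 genes compared and under 1/1.5 of it for 9.29%. Genes of the first kind stood lower in the deposited FPKM than with joined exons. For example, Actb was at 157 and 347 and Pax6 at 0.707 and 1.37 FPKM. A comparison between libraries was not touched by it.

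Counts of several mitochondrial genes could not be placed on 1 gene. A stretch of chromosome 1 (GRCm38) holds copies of mitochondrial genes, annotated in GENCODE M21 as unprocessed pseudogenes. Over their aligned lengths Gm10925 and mt-Atp6 had 0 mismatches in 678 bases, and the copies of mt-Co2, mt-Co3, mt-Nd4 and mt-Nd4l were also identical. The windows below are 41 bases of each pair, 5′ to 3′, with the bases that differ in capitals and positions counted from 1 at the start of the coding sequence. They show how little, if anything, in a read from the aligned lengths could tell these copies apart. The aligned length was 492 of the 1545 coding bases of mt-Co1 and 876 of the 1378 of mt-Nd4. The rest of these 2 genes lies outside the alignment. The first pair covers positions 320 to 360 of mt-Atp6 and has no differing base. The second covers 1054 to 1094 of mt-Co1, where all 6 of its differences in 492 bases lie (T1056A, C1057T, A1059G, A1060G, C1062A and A1066T). The third covers the first 41 bases of mt-Nd3, with its single difference in 345 bases (T3C).
mt-Atp6: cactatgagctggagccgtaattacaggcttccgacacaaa
Gm10925: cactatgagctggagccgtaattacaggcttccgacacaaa
mt-Co1: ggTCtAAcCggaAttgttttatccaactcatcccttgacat
Gm29216: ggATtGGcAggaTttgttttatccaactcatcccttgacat
mt-Nd3: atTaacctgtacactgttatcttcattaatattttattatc
Gm28438: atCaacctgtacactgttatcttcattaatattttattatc

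Most of these genes had far fewer counts in the table with SmoM2, without a matching rise in the copy. For mt-Atp6, a subunit of ATP synthase (mitochondrial genome, 7927 to 8607), the table with ShhN listed 52233, 62532 and 50726 counts, and for Gm10925 (chromosome 1, 24613974 to 24614651) it listed 55168, 64891 and 53548. The table with SmoM2 listed 1, 1 and 1 counts for mt-Atp6, with 54285, 63845 and 52547 for Gm10925. For mt-Co1, a subunit of cytochrome c oxidase, the counts were 186249, 200945 and 151756 in one table and 1, 0 and 0 in the other, while Gm29216 stayed within 18811 to 25687 in both. For mt-Co2 and mt-Co3, also subunits of cytochrome c oxidase, the gene and its copy each had at least 28895 counts per library in the table with ShhN. The genes had at most 2 in the table with SmoM2, and the copies 0, 0 and 170 counts for mt-Co2 and 0, 0 and 8 for mt-Co3. By contrast mt-Nd4, a subunit of complex I, had 48432, 60427 and 46593 counts in one table and 47221, 59621 and 46196 in the other. The mitochondrial genes took 2.94% to 3.34% of the counts in the table with ShhN and 1.37% to 1.58% in the table with SmoM2. No level of a single mitochondrial gene is therefore used here.

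Several nuclear genes also have identical or near-identical copies. Tpt1, the translationally controlled tumour protein, and its processed pseudogene Tpt1-ps3 were identical over the 519 coding bases. The alpha-globins Hba-a1 and Hba-a2 differed at 1 of 429 coding bases (C381T). The windows show positions 240 to 280 of the first pair, with no difference, and 361 to 401 of the globins, with the difference in capitals.
Tpt1: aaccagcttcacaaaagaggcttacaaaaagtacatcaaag
Tpt1-ps3: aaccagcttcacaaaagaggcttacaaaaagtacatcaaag
Hba-a1: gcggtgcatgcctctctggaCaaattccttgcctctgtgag
Hba-a2: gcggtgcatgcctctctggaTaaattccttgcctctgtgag

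Tpt1 on chromosome 14 was given 1778, 1662 and 1525 counts, and the pseudogene on chromosome 6 was given 18922, 18759 and 17228. Hba-a1 was given 1689, 3642 and 2045 counts and Hba-a2 1, 0 and 0. Rps27 had 62, 64 and 53 counts, while its retrogene Rps27rt, identical over the 255 coding bases, had 3524, 3157 and 2601. In each of these pairs 1 copy held over 90% of the counts, and the level of neither copy can be read by itself. The leading tubulins are less alike. Tuba1a and Tuba1b were 98.3% identical over 1356 coding bases, and Tubb2b and Tubb2a 96.5% over 1338. Tuba1a was given 180237, 148796 and 147859 counts and Tuba1b 7499, 10113 and 6039, while Tubb2b was given 59980, 56601 and 50419 and Tubb2a 31743, 30282 and 24330. Since the labels do not say how reads matching both members were counted, single tubulin levels are also uncertain. The same caution applies to Gapdh, a glycolytic enzyme with many processed copies, which was listed at only 1.28, 1.06 and 1.04 FPKM, and to Ppia, the peptidyl-prolyl isomerase cyclophilin A, at 4.42, 4.29 and 3.86. Other genes of general use were high: Eef1a1 as above, the ribosomal protein gene Rpl13a at 294 ± 9.01 and Actb, cytoplasmic beta-actin, at 215, 129.9 and 128 FPKM. Over the 12 housekeeping genes the median was 27.2 ± 3.65 FPKM.

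Neuronal and glutamatergic genes formed the highest of the cell-type lists. All 15 genes of the list of neurons in general had at least 1 FPKM in every library, against 52.2% of all genes, and their median was 33.0 ± 4.92 FPKM (SD of the 3 library medians). Counts of detected genes in the later lists are to be read against the same 52.2%. After Tubb3 came Gap43, a growth cone protein, at 343, 341 and 283 FPKM, and Mapt, the microtubule-associated protein tau, at 248, 221 and 209. Dcx, doublecortin, which binds microtubules in migrating neurons, had 105, 99.1 and 103 FPKM, and Stmn2, a tubulin-binding stathmin of axons, averaged 212 ± 20.1. Of the synaptic members Snap25, a vesicle fusion protein, averaged 31.8 FPKM, or 18.9 in the table with SmoM2. Syt1, a calcium sensor of release, averaged 24.0. Both were under Tubb3, Gap43, Mapt, Dcx and Stmn2, but not under every cytoskeletal member. Map2, a microtubule-associated protein, averaged 26.1 FPKM, under Snap25, and the neurofilament Nefm 9.14, under both. In the table with SmoM2 Map2 averaged 28.5 FPKM, above Snap25, so the order of Map2 and Snap25 depends on the table. Dcx was lower in the table with SmoM2, at 54.8, 52.3 and 50.1 FPKM.

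Genes of glutamatergic neurons came beside them. All 12 were detected by the same measure, with a median of 33.2 ± 7.42 FPKM. The glutamatergic median was 42.1 ± 0.512 FPKM in the table with SmoM2 and that of neurons in general 28.5 ± 5.66, so the likeness of the lists depends on the table. The transcription factors Neurod6 and Neurod2, which drive pyramidal neuron differentiation, had 239, 225 and 239 FPKM for the first and 241, 161 and 203 FPKM for the second, and Bhlhe22, a related factor, 90.6, 97.4 and 97.2. Neurod6 and Bhlhe22 were close in all 3 libraries, while Neurod2 was lower in library 2 than in library 1. Slc17a7, the vesicular glutamate transporter of mature cortical neurons, had 40.4, 44.2 and 17.4 FPKM. Its value in library 3 was well under the other libraries, and so was that of Camk2a, a kinase of mature excitatory synapses and the lowest member, at 7.73, 9.39 and 5.07. In bulk tissue fewer cells of a type and less RNA per cell cannot be told apart.

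Of 922 genes with the Gene Ontology term for sequence-specific DNA-binding factor activity in the deposited table, 562 (61.0%) had at least 1 FPKM in every library. By the deposited FPKM the highest was Sox4, a SoxC factor of newborn neurons, at 402, 284 and 356 FPKM, followed by Neurod6. Ybx1 and Hnrnpab, nucleic acid binding proteins of general use, averaged 183 and 172 FPKM, and with joined exon lengths 356.5 and 237, the first above Sox4 at 347.5 and the other above Neurod6 at 234.5. The order of the leaders thus depends on the gene length. Sox11, a relative of Sox4, averaged 136 ± 13.6 FPKM. Of 19 Sox genes 14 were detected. Ndn (necdin), an imprinted gene of postmitotic neurons carrying the same term, averaged 202 ± 28.3 FPKM, and Thra, a thyroid hormone receptor, 179 ± 13.6. By contrast, 6 Hox genes, which pattern hindbrain and spinal cord, held 3, 5 and 4 counts in total, and none exceeded 0.0233 FPKM. These class leaders and the families were picked after their values were seen.

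Genes of both sets of cortical layers were detected. Deep-layer genes had a median of 16.5 ± 1.57 FPKM, with 13 of 14 detected, and upper-layer genes 18.5 ± 2.36, with 15 of 15. With joined exon lengths the medians were 23.5 and 35.4 FPKM, so how near they lie depends on the gene length. Of the deep-layer list Rprm, a p53 target marking layer 6, had 128, 115 and 93.4 FPKM, Tbr1, the layer 6 selector factor, 57.8, 46.4 and 55.0, and Hs3st4, a heparan sulfate sulfotransferase, 41.8, 31.8 and 35.7. Bcl11b, the factor that specifies layer 5 subcerebral neurons, had 27.7, 23.4 and 24.3 FPKM. The lowest was Etv1, a layer 5 ETS factor, at 1.69, 2.08 and 0.534 FPKM, with library 3 lowest. The deep-layer values were highest in library 1 for Rprm, Tbr1, Hs3st4 and Bcl11b.

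Of the upper-layer list the POU factors Pou3f3 and Pou3f2, also called Brn1 and Brn2, had 104, 79.3 and 117 FPKM for the first and 49.0, 40.01 and 60.8 FPKM for the second, and Dok5, a docking protein, 58.9, 58.3 and 55.3. Cux2, an upper-layer homeobox factor, had 18.9, 15.3 and 20.6 FPKM. In the table with ShhN, Pou3f2, Pou3f3 and Cux2 were all lowest in library 2 and highest in library 3. Rorb, the layer 4 nuclear receptor, was the lowest member at 5.05 ± 0.414 FPKM.

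The 2 transient neuron types of the early cortex gave lower levels. Subplate genes had a median of 2.20 ± 0.275 FPKM with 5 of 8 detected, against 52.2% of all genes. They were led by Nxph4, a neurexophilin, at 18.6, 10.4 and 14.5 and Nr4a2, a nuclear receptor, at 15.04, 12.02 and 11.6 FPKM. Ctgf, a secreted matrix-associated protein, averaged 4.90 ± 0.199, and the lowest, Moxd1, a monooxygenase, 0.638 ± 0.128. Cajal-Retzius genes had a median of 1.23 ± 0.24 FPKM with 4 of 8 detected, near the 52.2% of all genes. Reln, the secreted layering signal reelin, stood well above the others at 18.6, 15.4 and 15.1 FPKM. It is also made by interneurons, and the more restricted Trp73, a p53 relative, averaged 1.45 ± 0.371. Calb2 (calretinin) averaged 4.24 ± 0.623, Ndnf, a secreted neurotrophic protein, 3.33 ± 0.716 and Lhx1, a LIM homeobox factor, 0.255 ± 0.0981 FPKM.

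GABAergic interneuron genes were well represented, with peptides at the top. Of the 18 genes of GABAergic cells and of interneurons born in the medial eminence, 17 were detected, and the median was 11.2 ± 0.664 FPKM. Npy, neuropeptide Y, had 214, 168 and 210.3 FPKM and ranked 99 among all genes. Sst, somatostatin, had 97.0, 101 and 57.6 FPKM, lowest in library 3. Gad1 and Gad2, the GABA-synthesising enzymes, had 7.20, 8.36 and 7.79 FPKM for the first and 16.4, 15.2 and 17.6 FPKM for the second, and Lhx6, the factor of migrating interneurons, 11.2, 10.3 and 9.44. The lowest member was Nkx2-1, a factor of the ventral progenitors themselves, at 0.88, 1.23 and 1.23 FPKM. Gad1, Gad2 and Lhx6 were close in all libraries, unlike Sst.

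The remaining ventral lists were lower. Genes of the caudal eminence and olfactory bulb had a median of 2.99 ± 0.147 FPKM, with 10 of 13 detected. Cnr1, the cannabinoid receptor CB1, averaged 30.4 ± 2.40, Meis2, a homeobox factor, 12.9 ± 1.07 and Nr2f2, the nuclear receptor COUP-TFII, 7.67 ± 3.24 FPKM, while Th, tyrosine hydroxylase of dopaminergic cells, was at 0.119 ± 0.0398. Striatal projection neuron genes had a median of 3.37 ± 0.578 FPKM, with 13 of 17 detected. Adcy5, a striatum-rich adenylyl cyclase, averaged 18.3 ± 3.53 FPKM and Ppp1r1b, the phosphatase inhibitor DARPP-32, 14.1 ± 1.19. Drd1, the D1 dopamine receptor, had 5.30, 4.46 and 8.03 FPKM, highest in library 3, and Tac1, the precursor of substance P, 2.51, 2.15 and 2.31. The lowest was Six3, a forebrain homeobox factor, at 0.479 ± 0.0245 FPKM. Whether striatal tissue was in the dissection was not tested, since some of these genes are also expressed by cortical neurons.

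**Figure D2:**
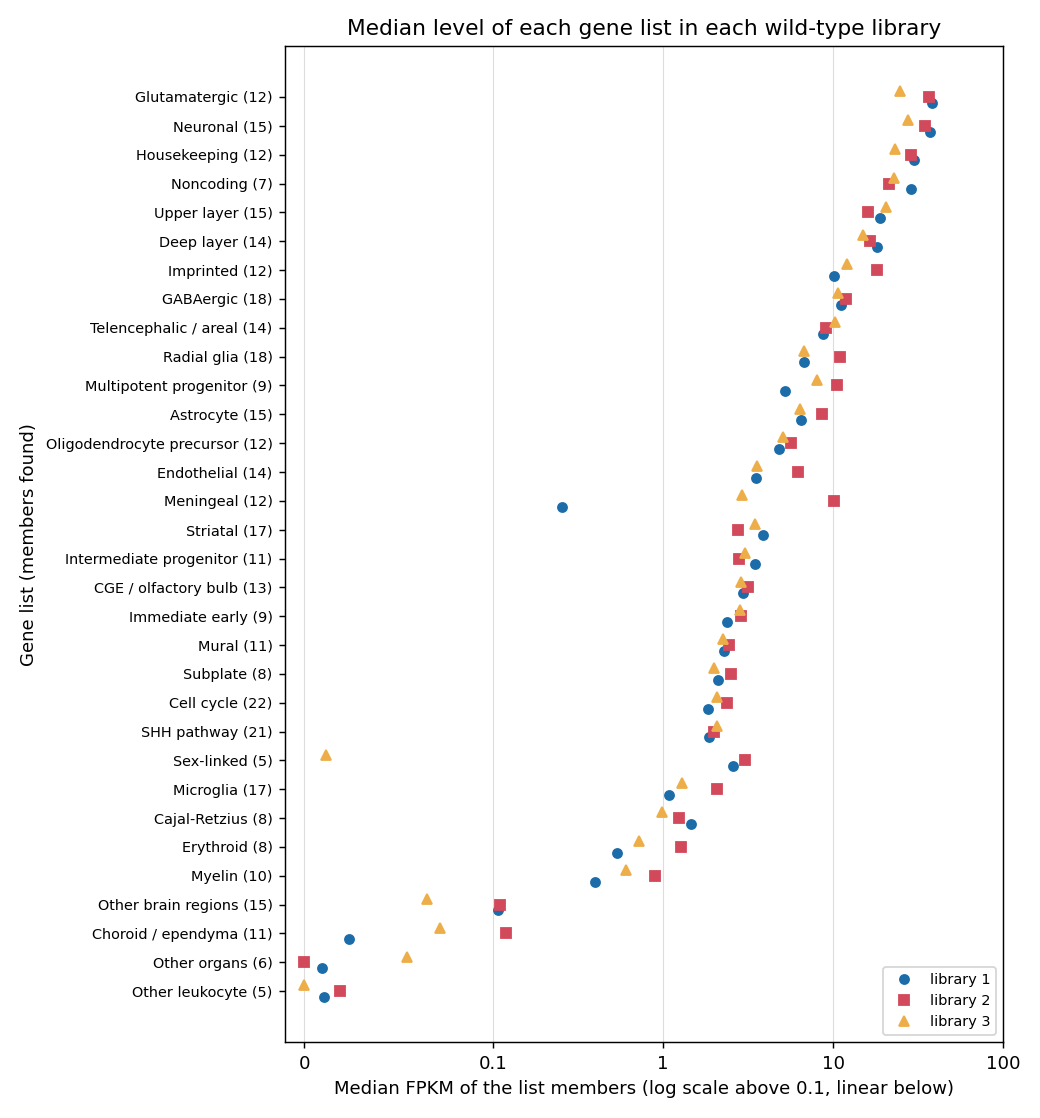
Median FPKM of the members of each gene list (x axis, log scale above 0.1 and linear below) in each of the 3 wild-type libraries, from the table with ShhN. Lists are ordered by the mean of the 3 medians, with the number of members found in brackets. The glutamatergic and neuronal lists stand at the top with means of 33.2 and 33.0 FPKM, lists of other organs and other leukocytes at the bottom, and the meningeal list spreads from 0.253 to 10.1 FPKM.

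Regional genes matched the labelled tissue. Of 14 genes of telencephalic identity and areal pattern 13 were detected, with a median of 9.37 ± 0.828 FPKM. Nr2f1, a nuclear receptor of areal patterning, had 42.4, 44.0 and 42.6 FPKM. Of 15 genes of brain regions outside the telencephalon that were found in the table, 1 was detected, the kinase gene Prkcd at 4.15 ± 0.449 FPKM. The next, Pomc, a hypothalamic peptide precursor, was at 0.347 ± 0.257, Slc6a4, the serotonin transporter, at 0.183 ± 0.111, and En2, a midbrain homeobox factor, at 0.0191 ± 0.0214 FPKM. Genes of other organs had 0 of 6 detected, with the heart myosin Myh6 highest at 0.273 ± 0.0948 FPKM, the lung surfactant gene Sftpc at 0.0429 ± 0.0373, the skin keratin Krt5 at 0.0245 ± 0.0425 and the kidney and thyroid factor Pax8 at 0.00236 ± 0.00409.

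Progenitor genes were expressed at moderate levels. Of 18 radial glia genes 16 were detected, with a median of 8.14 ± 2.49 FPKM. Fabp7, a fatty acid binding protein of radial glia, had 196, 259.6 and 147 FPKM, highest in library 2. Tnc, the matrix protein tenascin C, had 34.7, 41.1 and 30.0 FPKM and Id4, an inhibitor of basic helix-loop-helix factors, 23.7, 33.6 and 28.2, in both cases also highest in library 2. Sox2, the progenitor factor, averaged 26.7 ± 2.30. Pax6, the dorsal progenitor factor, had 0.726, 0.629 and 0.767 FPKM, with counts of 330, 309 and 323, and Fam107a, an outer radial glia gene, was lowest at 0.327 ± 0.139. Many of these genes are shared with astrocytes.

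Intermediate progenitor genes had a median of 3.10 ± 0.351 FPKM, with 10 of 11 detected. Insm1, a zinc finger factor of newly committed neurons, had 26.3, 12.7 and 16.7 FPKM, highest in library 1. Neurod1, a differentiation factor, averaged 10.2 ± 2.28 and Sstr2, a somatostatin receptor, 6.12 ± 1.06. Eomes, the factor that defines these progenitors, had 1.92, 1.28 and 1.505 FPKM, and Neurog1, a proneural factor, had 0, 1 and 0 counts, under the limit of 3 that a count of 0 allows. Of 9 genes of multipotent intermediate progenitors, the dividing cells that later give glia and olfactory bulb neurons, 8 were detected, with a median of 7.95 ± 2.65 FPKM. Olig1 and Olig2, the oligodendrocyte lineage factors, had 41.7, 38.6 and 33.5 FPKM for the first and 11.9, 16.1 and 16.7 FPKM for the second, and Dlx2, a ventral forebrain factor, 16.1, 15.7 and 18.3. Hes6, an inhibitor of Notch target activity, averaged 15.9 ± 3.25, Egfr, the growth factor receptor that marks these cells, 3.21 ± 0.503, and Gsx2, a ventral homeobox factor, 0.613 ± 0.173 FPKM.

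Genes of dividing cells were low. Of 22 cell cycle genes 17 were detected, with a median of 2.09 ± 0.267 FPKM, and Pcna, the replication clamp, was the only one above 10, at 13.3 ± 1.37. The helicase subunits Mcm4 and Mcm6 averaged 7.72 ± 0.956 and 7.69 ± 0.434, and Mki67, the proliferation antigen, 4.57 ± 0.64. Tyms, thymidylate synthase, was the lowest at 0.466 ± 0.118 FPKM.

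Genes of the SHH pathway, which the series concerns, were detected at low levels in the wild type. SHH is a secreted ligand that binds Ptch1 and so releases Smo, which activates the Gli transcription factors. Of 21 genes 14 were detected, against 52.2% of all genes, with a median of 1.97 ± 0.11 FPKM. The ligand gene Shh had 0.63, 1.00 and 0.585 FPKM and counts of 36, 62 and 31, and the ligand Dhh was the lowest member at 0.0888 ± 0.0457. The receptor Ptch1 had 1.71, 2.58 and 2.93, the transducer Smo 3.19, 4.26 and 3.05, and Gli1 and Gli3 had 1.48, 2.53 and 2.07 FPKM for the first and 2.13, 1.86 and 1.66 FPKM for the second. Gli1, an activator that is itself a target of the pathway, and Ptch1, another target, were lowest in library 1, while Shh was highest in library 2. The highest members were Scube1, of a family that helps release ligands, at 16.9 ± 1.45, Gpr161, a ciliary receptor that restrains the pathway, at 16.4 ± 3.69, and Gas1, a co-receptor, at 13.1 ± 1.19 FPKM.

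The astrocyte list had a higher median than the lists of oligodendrocyte precursors and myelin. Single genes did not all follow, since Gfap averaged 2.85 FPKM, under Pdgfra at 6.44 and Olig2 at 14.9. Because many astrocyte genes are shared with radial glia, the medians do not order the cell types by maturity. Of 15 astrocyte genes 12 were detected, with a median of 7.16 ± 1.24 FPKM. Sparcl1, a secreted synapse-promoting protein, had 79.9, 116 and 83.0 FPKM and Gja1, the gap junction protein connexin 43, 3.74, 36.5 and 13.7. Gfap, the filament protein of mature astrocytes, had 1.51, 4.87 and 2.18 FPKM. Library 2 was the highest and library 1 the lowest in each of these, and the spread was widest for Gja1. Agt, angiotensinogen, was the lowest at 0.276 ± 0.175 FPKM.

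Of 12 oligodendrocyte precursor genes 8 were detected, with a median of 5.18 ± 0.418 FPKM. Besides Olig1 and Olig2, Tnr, the matrix protein tenascin R, averaged 14.9 ± 0.835 and Pdgfra, the growth factor receptor of precursors, had 5.58, 7.85 and 5.88 FPKM, while Nkx2-2, a later lineage factor, was lowest at 0.566 ± 0.121. Of 10 genes of myelin 3 were detected, against 52.2% of all genes, with a median of 0.635 ± 0.253 FPKM. Mog, a surface glycoprotein of myelin, averaged 5.31 ± 0.61, Cnp, a nucleotide phosphodiesterase, 3.46 ± 0.256 and Mbp, myelin basic protein, had 2.14, 1.95 and 1.51 FPKM. Opalin, a late myelin membrane protein, had 0 counts in all 3 libraries. Cldn11, a tight junction protein of myelin and also of the meninges, had 0.107, 12.1 and 3.30 FPKM, the same order of libraries as the meningeal genes below.

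The meningeal genes differed between the libraries more than any other list but the sex-linked one. All 12 were at least 2-fold higher in library 2 than in library 1, while 3.59% of the 14946 genes with a mean of at least 1 CPM were. In the table with SmoM2 it was again all 12, against 3.66% of genes. Col1a1, a fibrillar collagen chain, had 0.201, 13.9 and 4.79 FPKM and counts of 28, 2093 and 618. Dcn, the matrix proteoglycan decorin, had 0.167, 19.6 and 7.30 FPKM, and Igf2, a growth factor made by meninges and vessels, 2.57, 29.0 and 7.87. In each of these library 1 was the lowest, library 3 between and library 2 the highest. Aldh1a2, a retinoic acid synthesising enzyme, had 0, 571 and 130 counts. Crabp2, a retinoic acid binding protein and the lowest member, had 0.502, 2.81 and 0.981 FPKM in the same order. Igf2 was the only 1 of the 12 at 1 FPKM or more in every library. The list's mean median was 4.41 ± 5.07 FPKM with all 3 libraries and 1.59 without library 2. Summed over the 12 genes the level was 5.87, 129.9 and 42.1 FPKM, so library 2 held 22.1 times and library 3 7.17 times the level of library 1. In the table with SmoM2 the sums were 4.88, 119 and 40.6 FPKM.

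Most vessel, immune and astrocyte genes were also highest in library 2, by smaller amounts. The median log2 ratio of library 2 over library 1 was 4.30 for the meningeal list, 0.91 for microglia, 0.87 for mural cells, 0.61 for endothelial cells and 0.59 for astrocytes, against 0.0024 over all 14946 genes. Over the 67 compared genes of these 5 lists, 32 (47.8%) were at least 2-fold over library 1 in library 2. Highest there were 61, against 36.7% of all 14946 genes. Both counts include all 12 meningeal genes. At least 2-fold were 6 of 17 microglia, 5 of 11 mural, 3 of 14 endothelial and 6 of 13 astrocyte genes. Highest in library 2 were 15, 9, 14 and 11 of them. Over the 117 compared genes of 9 neuronal lists 1 (0.855%) was at least 2-fold over library 1, the lysophosphatidic acid receptor gene Lpar1. In those lists 31 genes were highest in library 2. Among lists outside both groups, red blood cells had a median log2 ratio of 0.87, with 4 of 4 compared genes highest in library 2. Oligodendrocyte precursors had 0.36 with 7 of 12, and radial glia 0.28 with 11 of 18. Not all such lists were higher in library 2. Dividing cells had 0.12 with 7 of 22, myelin 0.01 with 6 of 8 and multipotent progenitors -0.09 with 1 of 9. Intermediate progenitors had -0.40 with 2 of 10. The grouping of the lists was made after their values were seen. The median of library 3 over library 1 was 2.78 for the meningeal list and 0.07 to 0.23 for the microglia, mural, endothelial and astrocyte lists. How much meningeal tissue was left on each piece of cortex was not recorded in the labels, and its part in these ratios was not tested.

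**Figure D3:**
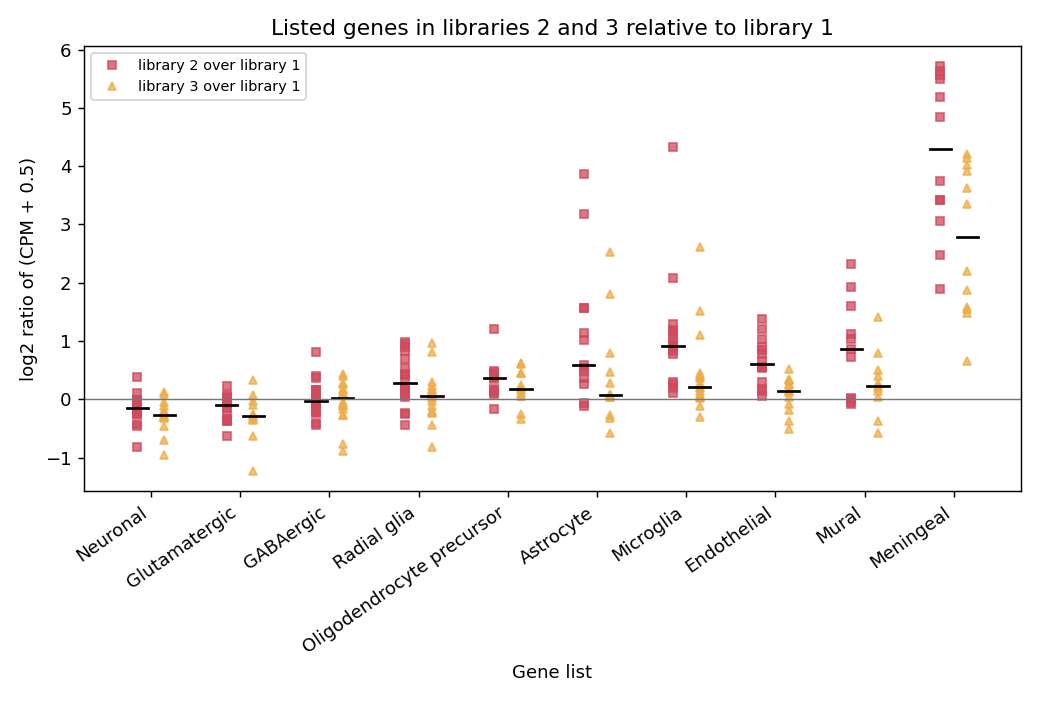
Log2 ratio of CPM plus 0.5 (y axis) of library 2 (squares) and library 3 (triangles) over library 1, for the members of 10 gene lists (x axis) with a mean of at least 1 CPM. Each point is a gene and each bar the median of its list. Neuronal lists lie around 0, and the meningeal list has a median of 4.30 in library 2 and 2.78 in library 3.

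The levels of the vascular and immune lists themselves were moderate to low. Of 14 endothelial genes 12 were detected, with a median of 4.43 ± 1.54 FPKM. Cldn5, the tight junction protein of the blood-brain barrier, had 23.1, 45.0 and 29.6 FPKM, Mfsd2a, its lipid transporter, 8.09, 9.26 and 8.99 and Slc2a1, the glucose transporter, 6.53, 9.86 and 7.33. Ly6c1, a surface antigen, was lowest at 1.08 ± 0.166 FPKM. Of 11 mural genes 7 were detected, with a median of 2.32 ± 0.111. Rgs5, a pericyte signalling regulator, had 10.1, 21.6 and 11.7 FPKM and Vtn, the matrix protein vitronectin, 3.89, 12.6 and 5.68, both highest in library 2. Notch3, a receptor of mural cells, averaged 5.72 ± 0.774, and Myh11, smooth muscle myosin, 0.25 ± 0.122 FPKM.

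Of 17 microglia genes 9 were detected, near the 52.2% of all genes, with a median of 1.48 ± 0.522 FPKM. The complement genes C1qa and C1qb had 4.12, 8.38 and 5.68 FPKM for the first and 2.75, 5.89 and 2.86 FPKM for the second. Aif1, the calcium-binding protein IBA1, had 0.404, 0.532 and 0.369 and Trem2, a phagocytic receptor, 0.0895, 0.264 and 0.29 FPKM. Mrc1, a receptor of the macrophages at brain borders, had 0.087, 3.15 and 0.888 FPKM, the same order as the meningeal genes. Other leukocyte genes were low. Of 5 found 0 had at least 1 FPKM in every library, S100a9, a neutrophil protein, averaged 1.07 ± 0.559, S100a8, its partner, 0.403 ± 0.36, Mpo, myeloperoxidase, 0.00983 ± 0.00958, and Ly6g, a neutrophil antigen, had 0 counts. Of 8 red blood cell genes 4 were detected, near the 52.2% of all genes. The beta-globin Hbb-bs had 19.8, 33.4 and 21.5 and Hbb-bt 10.3, 19.3 and 12.5 FPKM. Choroid plexus genes were near 0. The defining gene Ttr, transthyretin, had counts of 1, 5 and 2, the potassium channel Kcnj13 0, 0.572 and 0.351 FPKM and Ccdc153, an ependymal gene, 0 counts. Foxj1, the factor of motile cilia, was the only one of 11 such genes detected, at 1.44, 2.44 and 1.52 FPKM, and the water channel Aqp1 had 0.114, 1.84 and 0.695, highest in library 2.

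Beyond the meningeal genes, a few others set the libraries apart. Mitochondrial genes, pseudogenes and predicted names were left aside here. Among the 6742 other genes with a mean of at least 5 FPKM, the median SD of log2 CPM was 0.14. The largest, 4.08, was that of Eif2s3y, a translation factor on the Y chromosome, with 1813, 2194 and 4 counts. Ddx3y, Uty and Kdm5d, also Y-linked, were counted too: Ddx3y had 1268, 1467 and 2 counts, Uty 290, 485 and 0 and Kdm5d 1026, 1297 and 2. Over 15 Y-linked genes the counts were 4605, 5647 and 143, so that library 3 stood apart. Xist, the RNA that silences 1 X chromosome, had 35, 11 and 37 counts in libraries 1, 2 and 3, low in all of them. Any part of sex in the differences between libraries was not tested.

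The others with the largest SD in that ranking were Rpl29, Ptgds, Rps3a1, Col1a1, Dcn, Col3a1 and Cldn11. Ptgds, a prostaglandin D synthase of the meninges, had 0.526, 73.8 and 20.8 FPKM and Col3a1, a fibrillar collagen chain, 0.204, 11.7 and 4.07. The ribosomal protein genes Rpl29 and Rps3a1 followed another order, with counts of 10, 14 and 1768 for the first and 83, 43 and 2023 for the second, so that both were high in library 3 alone. Rps2 likewise had 217, 159 and 1082 counts while its pseudogene Rps2-ps10, identical at 93.3% of 879 bases, had 3075, 3324 and 72. Where the gene was high its copy was low, and the labels do not say how shared reads were assigned. Of the 8 genes with the largest SD in that ranking, which left out pseudogenes and predicted names, 3 are on the meningeal list. Ptgds and Cldn11 had the same order of libraries.

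Pairs of related genes, listed as an earlier and a later member in brain maturation, fell on both sides. The listing does not mean that 1 member of each pair replaces the other. In 8 of 16 pairs the earlier member was higher in all 3 libraries, in 6 the later member was, and 2 were mixed. The table with SmoM2 also gave 8 of the first kind. The ratios are log2 of FPKM plus 0.1, earlier over later, as mean ± SD of the libraries. Grin2b, the NMDA receptor subunit of immature synapses, had 12.9, 14.9 and 12.1 FPKM and Grin2a, which replaces it, 0.603, 1.08 and 0.996, a ratio of 3.78 ± 0.38. Scn3a, the embryonic sodium channel, averaged 10.98 and Scn1a 1.72, a ratio of 2.62 ± 0.42. The neurofilaments Nefm and Nefh gave 2.40 ± 0.22, the DNA methyltransferases Dnmt1 and Dnmt3a 2.31 ± 0.13 and the sodium channels Scn2a1 and Scn8a 1.34 ± 0.15. With joined exon lengths the mean was 1.30 for Dnmt1 over Dnmt3a and 0.73 for Scn2a1 over Scn8a. For Scn3a over Scn1a it was 2.00. These were smaller but on the same side. The receptor and channel pairs named here were on the early side. Camk2b over Camk2a, subunits of the calcium/calmodulin kinase, gave 2.11 ± 0.43.

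In other pairs the later member was the higher. Ptbp1, the splicing factor of progenitors, averaged 5.93 ± 0.17 FPKM and Ptbp2, its neuronal counterpart, 24.3 ± 3.33, a ratio of -2.01 ± 0.23. Actl6a over Actl6b, alternative subunits of the BAF chromatin remodeller, gave -1.61 ± 0.24, and the hexokinases Hk2 over Hk1 -5.05 ± 0.21. Among vesicular glutamate transporters Slc17a6 had 12.7, 10.1 and 10.8 FPKM, less than Slc17a7, with ratios of -1.66, -2.11 and -0.69 in libraries 1, 2 and 3. Hbb-y, the embryonic beta-globin, was at 0 counts in libraries 1 and 3, so its ratio to Hbb-bs of -7.38 ± 0.54 depends on the 0.1 added and is no bound. The splicing, BAF and hexokinase pairs thus lay on the late side. The enolases Eno1 and Eno2 gave 0.02 ± 0.23, and -0.35 in the table with SmoM2. With joined exon lengths their ratio was -0.88 ± 0.24, on the side of Eno2, and -1.25 in the table with SmoM2.

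For another 2 pairs the length behind FPKM moved the ratio to about 0. Slc12a2, the importer that keeps chloride high in immature neurons, averaged 14.4 ± 1.71 FPKM and Slc12a5, the exporter KCC2, 5.48 ± 1.28. Their ratio was 1.40 ± 0.44, but -0.000486 with joined exon lengths and 0.95 in the table with SmoM2. Dlg3 over Dlg4, postsynaptic scaffolds also called SAP102 and PSD-95, gave -2.12 ± 0.47 and -0.05 with joined exons.

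**Figure D4:**
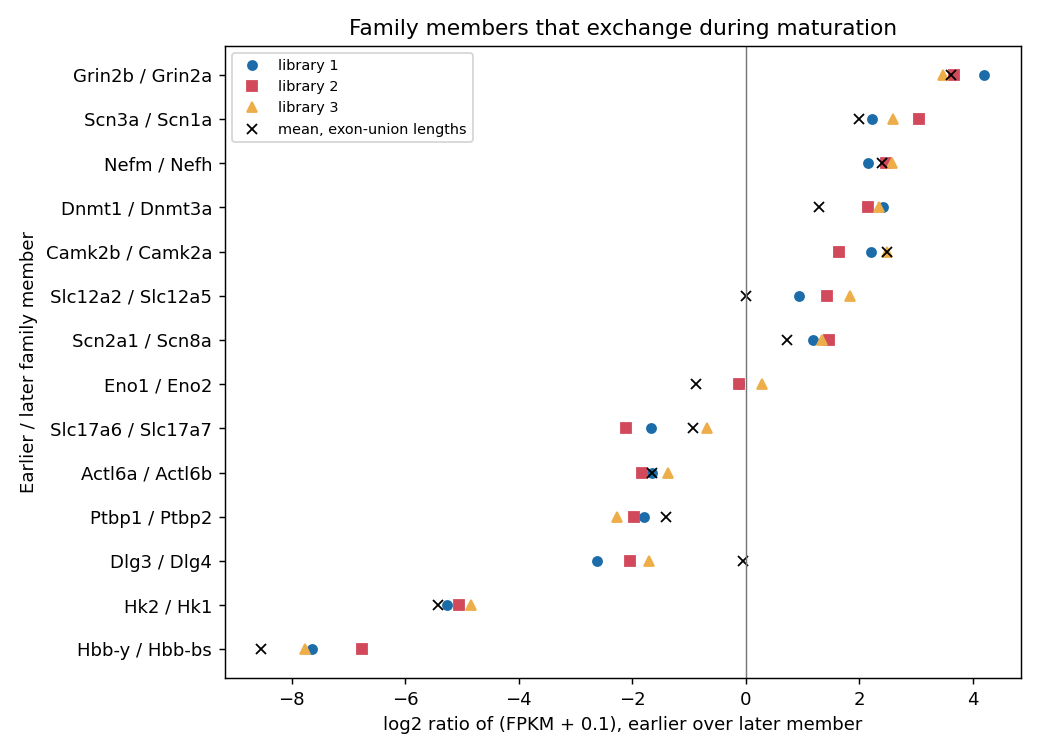
Log2 ratio of FPKM plus 0.1, earlier over later family member (x axis), for 14 of the pairs (y axis) in the 3 wild-type libraries. Crosses give the mean with joined exon lengths in place of the deposited FPKM. The NMDA receptor, sodium channel and neurofilament pairs lie right of 0, and the Slc12a2 / Slc12a5 and Dlg3 / Dlg4 crosses move to about 0.

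Signals and surface receptors gave further markers of this stage. Of 197 genes with a growth factor or hormone activity term, 59 (29.9%) were detected, and Npy led them, followed by Ptn, the growth factor pleiotrophin, at 174, 199 and 208 FPKM, and Sst. Of 363 genes with the G-protein coupled receptor term, olfactory receptors left out, 120 (33.1%) were detected, with Gpr27, an orphan receptor, highest at 58.9, 56.3 and 54.6 FPKM and Adgrl1, the adhesion receptor latrophilin 1, next at 44.1, 42.9 and 47.8. Of 365 with the ion channel term 202 (55.3%) were detected. Gpm6a, a neuronal membrane glycoprotein with that term, had 495, 459 and 522 FPKM. These leaders were picked after their values were seen.

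The remaining lists were of imprinted, noncoding and activity-induced genes. Imprinted genes had a median of 13.4 ± 4.08 FPKM, with Ndn at 202, the long noncoding RNA Meg3 at 91.4 ± 9.29, the splicing protein gene Snrpn at 80.2 ± 7.78 and the Notch-like ligand Dlk1 at 0.203 ± 0.0458. Of 7 noncoding RNAs 5 were detected. Miat averaged 83.4 ± 6.81 and Snhg11 26.2 ± 14.2, the latter highest in library 1, while Rmst, a regulator of neural differentiation, was at 0.129 ± 0.0592 FPKM. Immediate early genes, which neuronal activity induces within minutes, had a median of 2.70 ± 0.276 FPKM with 6 of 9 detected. Nr4a1, a nuclear receptor, averaged 7.20 ± 0.483, Ier2 6.08 ± 0.0636, Junb, an AP-1 subunit, 3.59 ± 1.09 and Fosb, its partner, 0.331 ± 0.013. Ier2 and Fosb were close in all libraries, while Junb had 2.38, 3.88 and 4.50 FPKM, lowest in library 1.

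Promoter letters differed with the level of the gene. RefSeq promoters (GRCm38.p6) were matched by symbol for 12448 genes of the table with ShhN that carry a plain name. In the 250 bases before the start, the dinucleotide CG, which reads the same on both strands, had a median count of 4 for genes under 0.1 FPKM, 8 from 0.1 to 1, 16 from 1 to 10, 18 from 10 to 100 and 16 at 100 and over. The letters TATAA, searched on the gene's own strand between 40 and 16 bases before the start, were in 7.13% of the genes under 0.1 FPKM, 5.48% of those from 0.1 to 1, 1.63% from 1 to 10, 1.44% from 10 to 100 and 6.34% of the 142 genes at 100 FPKM and over, against 3.03% of all genes matched. Where a gene has several listed starts the first was used. The 150 bases before the start are shown for a highly expressed tubulin, a highly expressed transcription factor and a globin, 5′ to 3′ on the gene's strand with each CG in capitals. Tubb3 (chr8:123411403-123411552, plus strand) held 16 CG, Neurod6 (chr6:55681264-55681413, minus strand) 3 and Hbb-bs (chr7:103827929-103828078, minus strand) 2. Tubb3 and Hbb-bs held TATAA at that distance and Neurod6 did not. The starts are those of RefSeq. For Tubb3 the deposited locus begins at 123411424, so most of its window lies inside the gene as deposited.
Tubb3: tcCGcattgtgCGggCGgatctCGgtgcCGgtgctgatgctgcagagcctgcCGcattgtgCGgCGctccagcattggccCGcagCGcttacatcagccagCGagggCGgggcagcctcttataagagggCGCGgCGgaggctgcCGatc
Neurod6: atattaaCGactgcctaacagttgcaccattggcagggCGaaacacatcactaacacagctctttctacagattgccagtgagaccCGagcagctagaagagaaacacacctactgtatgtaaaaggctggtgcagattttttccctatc
Hbb-bs: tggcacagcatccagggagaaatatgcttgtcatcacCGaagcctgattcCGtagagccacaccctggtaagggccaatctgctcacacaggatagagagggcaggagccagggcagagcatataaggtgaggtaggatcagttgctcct

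Neurod6, with 3 CG in its 250 bases, was at 234 FPKM. High expression in this tissue was thus found with a promoter poor in CG as well as with one rich in it. By list, the median CG count was 26 for the 5 matched Cajal-Retzius genes, 23 for the 12 matched telencephalic and areal genes, 18 for 11 upper-layer genes, 5 for 11 astrocyte genes, 4 for 11 microglia genes and 3 for 6 erythroid genes. Over all 12448 matched genes the median was 14. Neuronal lists lay on both sides of it, with 17 for neurons in general, 13 for deep-layer, 10 for glutamatergic and 8.5 for subplate genes. Genes of dividing cells had 19, and those of other leukocytes and of other organs 2 each. A match of letters is a description of these windows only.

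The values of the same libraries were not the same in both tables. Of 22268 genes in both, 6789 (30.5%) had identical counts in all 3 libraries. Of 16222 genes with at least 60 counts over both tables, 4202 (25.9%) differed by over 0.1 on the log2 scale in the summed count with 5 added, and 245 (1.51%) by over 1. In at least 1 library 546 (3.37%) differed by over 1, of which 267 did so in 1 library and 142 in 2. Of the listed genes 341 could be compared, 79 (23.2%) differed by over 0.1 and 2 (0.587%) by over 1. The first share is near that of all genes and the second is lower. In 10 listed genes at least 1 library differed by over 1, among them Dcx, Foxp2, Syt6, Apoe, P2ry12, Actb, Gapdh and H19.

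Such shifts did not always touch the libraries alike. Dcx had 39494, 40134 and 35959 counts in the table with ShhN and 20485, 21127 and 17416 in the table with SmoM2, lower in all 3. Actb had 25444, 16631 and 14007 counts in the table with ShhN and 25311, 33671 and 25463 in the table with SmoM2, so libraries 2 and 3 were higher there while library 1 hardly differed. For Actb the order of the libraries depends on the table.

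Among genes with at least 1000 counts, the 6 with the largest excess in the table with ShhN were mitochondrial: mt-Co1, mt-Atp6, mt-Co2, mt-Co3, mt-Atp8 and mt-Nd3. The 6 with the largest excess in the table with SmoM2 were Nova2, a neuronal splicing factor, Npcd, Ube2l3, a ubiquitin-conjugating enzyme, Lsamp, an adhesion protein of the limbic system, Gprasp2 and Rims3, a presynaptic protein. Nova2 had 6, 6 and 6 counts in the table with ShhN and 1364, 1702 and 1143 in the table with SmoM2. Lsamp had 1721, 1651 and 1675 against 7414, 8279 and 8185. In both genes all 3 libraries differed in the same direction. Hoxa2, Hoxb4, Hoxc8, Cd3e, Ins2 and Umod of the lists were not analysed here.

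**Figure D5:**
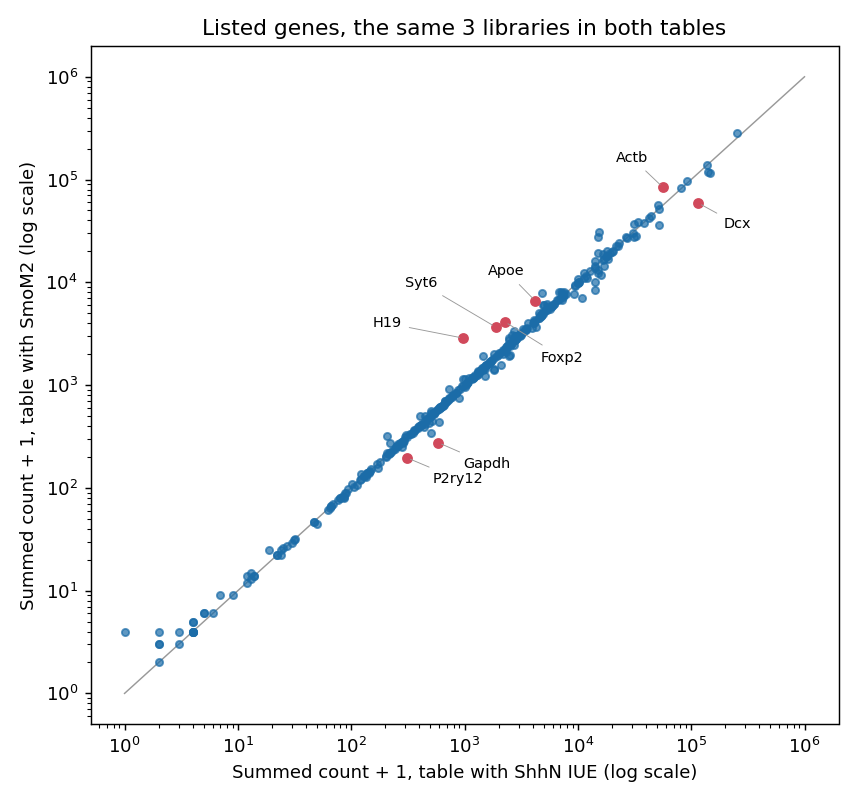
Counts summed over the 3 wild-type libraries plus 1 for each listed gene, in the table with ShhN (x axis, log scale) and the table with SmoM2 (y axis, log scale), with the line of equality. Red points name 8 of the 10 genes in which at least 1 library differed by over 1 on the log2 scale. Most of the listed genes lie on or near the line.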

How the data were processed

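RNA-seq of 3 wild-type cortex libraries was read from 2 deposited tables. The authors deposited a read count and an FPKM per gene and library, per the file headers. HISAT2, StringTie, edgeR, GRCm38.p4 and mm10 are named in the submitters' processing notes. Versions, strand and the handling of shared reads are not given in the sources used here. Genes, lists and alternatives were chosen with earlier results of these data known. Detection was an FPKM of at least 1 in all 3 libraries. Ratios between libraries used log2 of counts per 1000000 (CPM) plus 0.5, for genes with a mean of at least 1 CPM. The spread between libraries came from edgeR 4.0.16 in R 4.3.3, with an intercept only and TMM scaling, over genes with at least 10 counts in each library. Other steps used Python 3.11.15, pandas 2.3.3, numpy 2.4.6 and scipy 1.17.1. Scripts were tested on simulated data. IDs were matched to GENCODE M21 (GRCm38) for 22357 of 22496 and 23477 of 23624 genes. Sequences came from GENCODE M21 and RefSeq GRCm38.p6.

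Named genes were the 15 most abundant, the 3 highest, the lowest and any at 0 of each list, both members of each pair, the 8 with the largest SD of log2 CPM, the sex-linked list, the 6 with the largest difference between tables in each direction, and a set of standard markers. Stmn2, Snap25, Syt1, Map2, Sox2, Trp73, Drd1, Mki67, Mrc1, Aldh1a2, Ppia, the copies and the genes of the families were named after their values were seen. Some genes that this rule names are not reported here. Lists, pairs and tables carry no test, since there is only 1 group.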

Additional observations from a re-analysis of the deposited data

How the results depend on the processing

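No paired analysis was possible because only 1 group was described. The spread between libraries was 23.1% without a filter on low counts and 17.5% with at least 50 counts in every library, against 20.2%. Leaving out 1 library gave 18.4% to 21.5%, the lowest without library 1. Between tables, 4202 genes were past 0.1 on the log2 scale. With joined exon lengths, an alternative chosen after seeing the data, the ratio of Slc12a2 to Slc12a5 went to 0 within its SD (-0.000486 ± 0.444), 21 of 32 list medians moved by over 1 SD, and so did 26 of 43 named genes and 9 of 16 pair ratios. In the table with SmoM2, 3 of 32 list medians, 9 of 43 named genes and 4 of 16 pair ratios moved. FPKM rescaled to a sum of 1000000 per library moved all 32 list medians, since it multiplies every value. Without library 2 the meningeal median went from 4.41 to 1.59 FPKM, and the means of Col1a1, Gfap and Ttr to 2.50, 1.85 and 0.0645. The medians of the lists of other leukocytes (without library 2) and other organs (without library 3) also moved by over 1.5 times, both from under 0.1 FPKM. Depth limits genes near 3 counts, and 3 libraries limit every SD.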
